A study of Mus musculus with 20 samples.

Results

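The genes described here code for the machinery that copies DNA. They were chosen by a rule on names that uses no measured value, although earlier results of these data were known when it was set. The rule took every deposited gene symbol of the families Mcm, Orc, Pol (alpha, delta, epsilon, gamma, eta, iota, kappa, lambda, nu and theta), Rfc, Gins, Prim and Rpa, together with Cdc6, Cdc7, Cdc45, Cdt1 and Gmnn. The rule matched 53 mouse genes of the RefSeq gene table, and 50 of them carried at least 1 listed m6A peak under their deposited symbol, out of 11976 genes with a peak in any stage. Orc4 and Pold4 had no listed peak. Mcm10 had peaks in 3 stages, but with an empty deposited symbol, so it was named only through its RefSeq accession and is not counted among the 50. Mcm3ap, the mRNA export factor gene GANP, was matched by its name and is given no replication role here. It is counted with the rest and described last.

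N6-methyladenosine (m6A), a methylated adenosine inside mRNA, was mapped in wild-type C57BL/6 mouse male germ cells of 5 stages. These were undifferentiated and type A1 spermatogonia, spermatocytes at preleptotene and at pachytene/diplotene, and round spermatids. Each stage gave 2 libraries of polyadenylated RNA fragments pulled down with an anti-m6A antibody and 2 libraries of input RNA, 20 in all. The labels give no engineered allele and no treatment for any group. No source used here gives the age of the mice, the way the cells were isolated or whether replicates came from separate animals, so the p-values speak of the spread between the deposited samples alone, and that spread may be technical.

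DNA replication is licensed when the origin recognition complex, CDC6 and CDT1 load the ring of MCM2 to MCM7 onto origins, and geminin blocks a second loading. The kinase CDC7, CDC45 and the GINS complex turn the ring into the active helicase, polymerase alpha-primase lays primers, and polymerases delta and epsilon extend them with the clamp loader RFC and the single-strand binder RPA. In the testis, spermatogonia divide by mitosis, preleptotene spermatocytes carry out the last S phase before meiosis, and pachytene/diplotene spermatocytes and round spermatids no longer replicate their genome. m6A is written by METTL3 and METTL14, mostly where GGAC or a close variant occurs, and is often found near stop codons. The antibody also binds the methylated adenosine next to the mRNA cap, so at a 5′ end the 2 marks cannot be told apart.

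The type A1 libraries stood apart, with 68.3% to 87.5% of reads mapped against 92.8% to 97.6% in the other 16, at 9622068 to 22402907 mapped reads per library. Their table and that of round spermatids also held lower log2 enrichments, with medians of the strongest peak per gene of 2.05 and 1.86 against 3.23 to 3.51 elsewhere, and the lowest listed value was 0.71 and 0.61 against 1.42 to 1.55. Values of different tables are therefore set side by side without a test, and tests use values that 1 table gives for both stages. Of the stage markers, all 6 of undifferentiated spermatogonia were marked in that stage, 4 in type A1, 1 in preleptotene and none later. Of the 4 markers of differentiating (type A1) spermatogonia, 3 were marked in each of the first 3 stages, none later, and Sohlh1 in no stage. They do not set type A1 apart from its neighbours. All 5 preleptotene markers were marked in that stage, with 4 in undifferentiated cells and 3 in each of the other stages. All 5 pachytene/diplotene markers were marked in that stage and in round spermatids, and 3, 1 and 2 in the earlier stages. Of the 5 round spermatid markers 3 were marked in both late stages, none earlier, and Prm2 and Tnp1 in no stage. Of 20 markers of Sertoli, Leydig, stromal, endothelial and blood cells, 17 were marked in undifferentiated spermatogonia, with a summed log2 enrichment of 66.5, against 1 in type A1 (1.28), 3 in preleptotene (10.1) and none in the later stages, where they sum to 0. The part of such cells in the results for undifferentiated spermatogonia was not tested. In bulk samples fewer cells of a type and less RNA per cell cannot be told apart, and a gene without a peak may be unmethylated or too little expressed.

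Replication genes were marked in most cases before meiotic prophase and much less in haploid cells. Of the 50, 46 (92.0%) carried a peak in undifferentiated spermatogonia, where 75.9% of all 11976 genes did. In type A1 spermatogonia 42 (84.0%) did, against 61.1% of all genes, and in preleptotene spermatocytes 44 (88.0%), against 62.4%. In pachytene/diplotene spermatocytes the number was 31 (62.0%), near the 56.1% of all genes, and in round spermatids 15 (30.0%), below the 46.9% of all genes. These are counts from 1 peak list per stage, with no replicate error and no test, and the lists differ in length, from 23031 peaks in undifferentiated spermatogonia to 10950 in round spermatids. Over the 10950 strongest peaks of each list the members marked were 29, 32, 34, 25 and 15 (58%, 64%, 68%, 50% and 30%), against 51%, 49.5%, 47.4%, 46.1% and 46.9% of all genes, so the share in undifferentiated cells stood nearer to that of all genes than over the full lists. The members of the list were chosen by a rule on names, with earlier results of these data known, and each has a peak in at least 1 stage, as do all 11976 genes. Members carried 2.35, 1.90, 2.00, 2.16 and 1.67 peaks per marked gene along the 5 stages, against 2.53, 2.24, 2.51, 2.33 and 1.95 over all marked genes. The median log2 enrichment of their strongest peaks was 3.68, 1.98, 3.50, 3.22 and 1.73, beside 3.51, 2.05, 3.36, 3.23 and 1.86 over all genes.

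**Figure D1:**
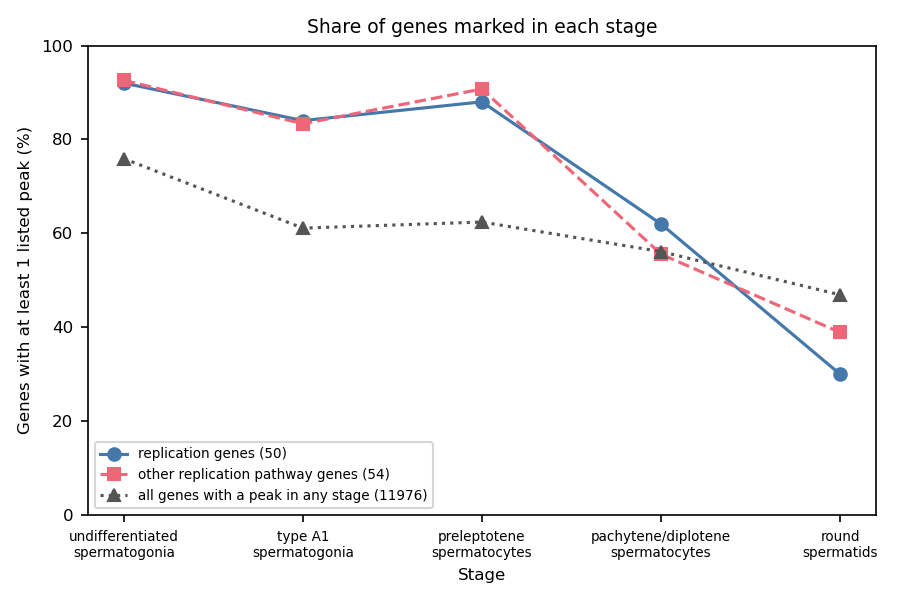
Percentage of genes with at least 1 listed peak (vertical axis) in each of the 5 stages (horizontal axis) for the 50 replication genes, 54 other genes of the replication pathway and all 11976 genes with a peak in any stage; each point is a count from 1 peak list, with no error bar. The replication genes lie above all genes up to preleptotene (92.0%, 84.0% and 88.0%), near them in pachytene/diplotene (62.0%) and below them in round spermatids (30.0%).

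Most members that lost their peaks did so at the last 2 steps. From preleptotene to pachytene/diplotene 16 of 44 marked members (36.4%) had no peak left, near the 33.8% of all genes marked in preleptotene. The lost genes were Cdc45, Cdt1, Gins3, Mcm2, Mcm4, Mcm5, Mcm8, Orc1, Orc3, Orc6, Pola1, Pold1, Pole2, Poln, Prim1 and Rfc5. From pachytene/diplotene to round spermatids 17 of 31 (54.8%) were lost, above the 34.6% of all genes, and Cdc45 alone was gained. The earlier step from undifferentiated spermatogonia to preleptotene cost 5 of 46 (10.9%, against 25.4% of all genes), which were Gins2, Gmnn, Pole3, Polg2 and Rpa2. At that step Orc6, Poln and Prim1 were gained. Gmnn, Pole3 and Rpa2 had a peak again in pachytene/diplotene and are also among the 17 lost after it. The 17 members lost after pachytene/diplotene had a median strongest enrichment of 3.14 there, and the members kept had 3.40. All genes lost at that step had 2.82, and all genes kept had 3.49.

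Over the 5 stages 12 members were marked throughout, 14 in every stage but round spermatids and 10 up to preleptotene only, and 3 in a single stage. Merged where they overlapped, the peaks formed 130 sites, of which 44 were seen in 1 stage and 15 in all 5. The shares of all genes and of all sites with these patterns are not given here, so neither count shows a trait of replication genes. Of the 108 member peaks of undifferentiated spermatogonia 63 (58.3%) overlapped a type A1 peak, and of the 80 type A1 peaks 60 (75.0%) overlapped a preleptotene peak. The same shares over all peaks were 56.5% and 71.3%. Of the 67 pachytene/diplotene peaks 25 (37.3%) overlapped a round spermatid peak, against 51.9% of all peaks.

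**Figure D2:**
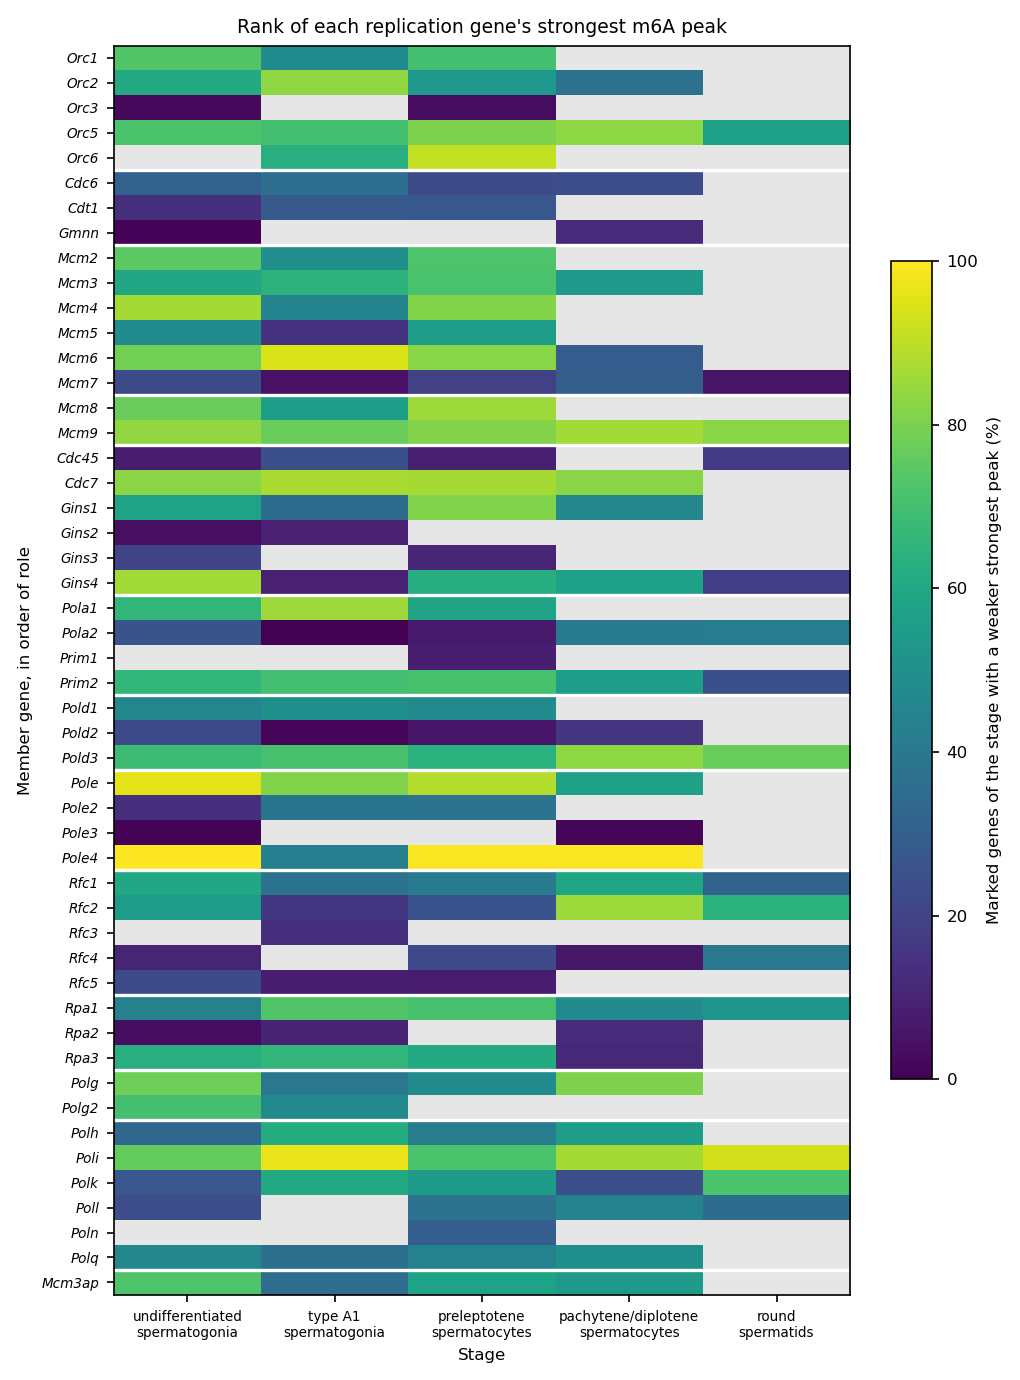
Each row is 1 of the 50 genes, in order of role with white lines between roles, and each column a stage; the colour gives the percentage of marked genes in that stage whose strongest peak is weaker, and grey means no listed peak. Pole4 is near the top of the scale in 3 stages and in the middle in type A1 spermatogonia, and most rows are grey in round spermatids.

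For the members with a peak that begins within the first 50 bases of the deposited transcript, the letters there were searched for GGAC, the most common m6A core, on the transcript strand. Only genes with 1 start in the RefSeq promoter table were used, and the deposited transcript was taken to begin there, although the RefSeq bounds of Orc1 and Pola1 reach further upstream. Of 10 such members 3 held GGAC at or after the first base of a peak within these 50 bases, while 18.9% of all genes hold it somewhere in these bases. They are shown because, with that start, they place the core inside the peaks described here, with GGAC in capitals. The Orc1 core begins at base 24, and peaks of undifferentiated, type A1 and preleptotene cells cover it. The Pola1 core, at base 40, lies in the type A1 peak, and the Pole3 core, at base 36, in the peak of undifferentiated spermatogonia. A match is not a mapped methylated base. The sites are, from RefSeq GRCm38.p6, Orc1 at chr4:108579464-108579493 (+), Pola1 at chrX:93632106-93632129 (-) and Pole3 at chr4:62524965-62524992 (-).
Orc1: cagctgagagctgGGACtacgtgttgtagc
Pola1: tagagagactatcGGACcatggcg
Pole3: cggagaggcccgaGGACctaaatctgcc

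Replication genes are classical targets of E2F transcription factors, and some of the members' promoters hold a motif that the choice by name did not use. The motifs TTTGGCGC, TTTCGCGC, TTTCCCGC and TTTGCCGC, on either strand, were searched in the 250 bases before the first start that the RefSeq promoter table lists for each gene; matches on both strands can overlap, and a gene counts once. A listed start need not be the outer end of the gene, and for Cdc6, Mcm5, Mcm7, Orc1, Orc3, Pola1 and Pole4 it lies inside the RefSeq gene bounds. Of 40 members with an entry 10 (25%) held at least 1 of them (Cdc6, Gins3, Mcm5, Mcm6, Mcm7, Orc1, Orc3, Pola1, Pole4 and Rfc3), against 517 of 27025 genes (1.91%). Mcm4, Pole, Gins1, Gins2, Gins4, Gmnn, Poli, Poll, Prim2 and Rfc2 had no entry in the table. The elements of Pole4 (chr6:82652891-82652918, -, GRCm38.p6, 34 bases before that listed start) and Orc1 (chr4:108579417-108579444, +, 27 bases before it) are printed with the match in capitals. Nothing in the m6A tables measures transcription, so these are descriptions of sequence only.
Pole4: tctacccggcGCGGGAAAggggccgaaa
Orc1: tcggttagtgGCGCGAAAagttttctcc

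Each table gives, per peak and replicate, the log2 enrichment in its own stage and the log2 ratio to 1 other stage, which sets 5 comparisons. Differences are log2 enrichments after centring each replicate on its median over all peaks of the table, so "higher" and "lower" mean relative to the typical peak of that table. A peak was called at a limma adjusted p under 0.05 over all peaks of the table. Each table holds only peaks listed in its own stage, which favours its own stage for peaks the other stage does not list. Comparisons that share a stage share its libraries. Where a gene's values are listed along the stages, they are those of its strongest peak in each stage, which can lie at different sites.

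Against type A1 spermatogonia, 11 of 108 member peaks were higher in undifferentiated spermatogonia, where 15.9% of all 22843 peaks were, and 13 were lower, where 9.22% were. With quantile normalization the split was 6 higher and 15 lower. Against preleptotene spermatocytes, 9 of 80 member peaks were higher in type A1 (14.4% of all 16309 peaks) and 15 lower (13.6%). In both, the share of member peaks called was near that of all peaks, 22.2% against 25.1% and 30.0% against 28.0%. In the second comparison quantile normalization left 4 higher and 13 lower, and scaling the columns by their spread 5 higher and 11 lower. Between preleptotene and undifferentiated cells, a comparison without the type A1 libraries, 3 of 88 member peaks were higher in preleptotene (5.36% of all 18706 peaks) and none was lower (2.45%). The 3 calls all lie on Poln, for which undifferentiated cells list no peak. An unadjusted p under 0.05 in limma was found for 7 of the 88 member peaks, beside 4105 of all 18706 peaks. Against round spermatids, 6 of 66 member peaks were higher in pachytene/diplotene (7.06% of 15514 peaks) and 4 lower (1.71%). With quantile normalization 3 were higher and 5 lower. Among the 25 member peaks of round spermatids 2 were higher there than in pachytene/diplotene (16.1% of 10810 peaks) and 2 lower (10.9%), with none called after quantile normalization and 3 higher and 0 lower after scaling by the spread. With 1 library left out, its stage rests on a lone sample that is taken to vary like the others. Without type A1 replicate 1 the first comparison kept 6 calls (on Gins4, Mcm3ap, Pole, Pole4 and Poli) and the second 2 (Cdc6 and Pole4), and without type A1 replicate 2 they kept 10 and 4. Without either round spermatid replicate the last comparison kept none, and against round spermatids 3 to 7 calls stood when 1 library was left out, those on Pole4, Rpa3 and Polq each time. In all 65 calls the centred replicates of both stages do not overlap, and in 38 the deposited values are apart in the called direction as well. In 12 the deposited values overlap, and in 15 they are apart in the other direction. In what follows, "relative to the median" marks the 24 calls on members whose direction turns without centring.

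The calls that involve type A1 spermatogonia fell by position on the transcript. This was noticed after the values were seen and has no test of its own. Of 18 member peaks in the 5′ UTR or at the start codon, 6 were higher in undifferentiated than in type A1 cells and none lower, where 29.6% of all such peaks were higher and 5.38% lower. At the stop codon or in the 3′ UTR, 0 of 16 were higher and 3 lower, where 6.49% of all such peaks were higher and 18.9% lower. In the type A1 table, 9 of 20 member peaks on the 5′ side were lower than in preleptotene and none higher, beside 29.9% and 8.8% of all such peaks. On the 3′ side 4 of 17 were higher and none lower, beside 23.2% and 5.99%. Of 74 member peaks in coding sequence, 5 were higher and 10 lower in undifferentiated than in type A1 cells, beside 15.7% and 6.72% of all such peaks. Of 43 in the type A1 table, 5 were higher and 6 lower than in preleptotene, beside 9.97% and 13.95%. The median difference of member peaks, type A1 minus preleptotene, was -0.75 on the 5′ side and 0.62 on the 3′ side, and over all peaks -0.42 and 0.30. At both ends the medians of replication genes and of all peaks had the same sign. Lower mapping of the type A1 libraries went with these comparisons, and its part in them was not tested. Between preleptotene and undifferentiated cells no member peak with a deposited 5′ or 3′ label was called, of 3 and 6 peaks. The preleptotene list has no start or stop codon labels, and 26 of its 88 member peaks have no label at all. Start and stop codon peaks are thus not among those 3 and 6, and the counts cannot show whether position mattered there. The called Poln peak at positions 114 to 226 has no label.

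**Figure D3:**
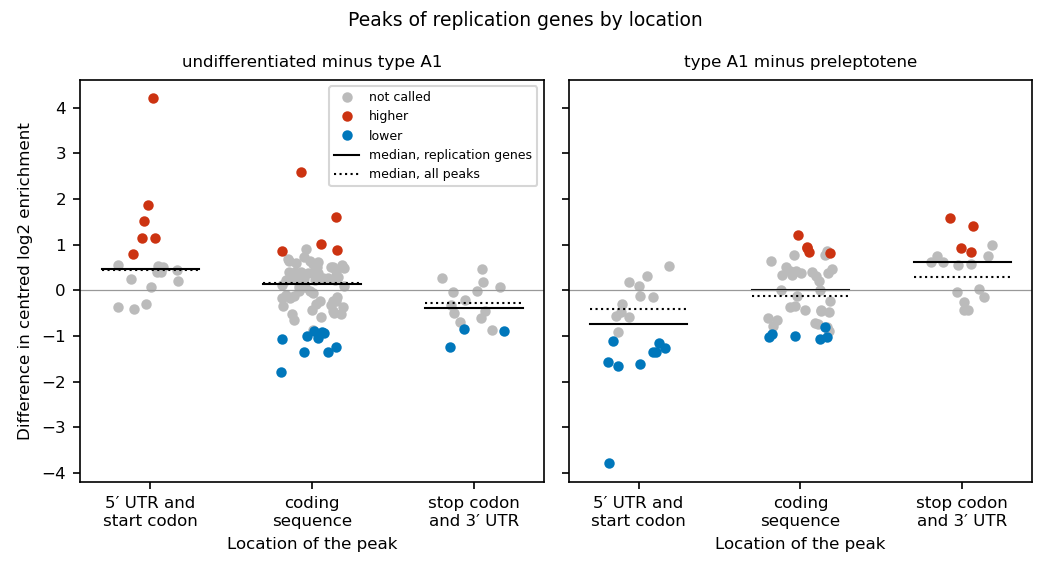
Every point is a peak of a replication gene, placed by its location (horizontal axis) and by the difference in centred log2 enrichment between 2 stages (vertical axis), with undifferentiated minus type A1 on the left and type A1 minus preleptotene on the right; red and blue peaks were called higher and lower by limma, and solid and dotted lines are the medians of replication genes and of all peaks. The start codon peak of Pole4 is the farthest point in both panels, at 4.21 and -3.79, and 5′ peaks lie higher on the left and lower on the right.

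Pole4, a small histone-fold subunit of DNA polymerase epsilon, carried the strongest peak of all members in 3 stages. Its start codon peak (transcript positions 7 to 177, NM_025882, gene at chr6:82616532-82653043 of GRCm38.p6) had log2 enrichments of 8.04 and 8.28 in undifferentiated, 1.92 and 1.91 in type A1, 7.83 and 6.44 in preleptotene and 6.74 and 6.58 in pachytene/diplotene. These values ranked 17 of 9091 marked genes in undifferentiated spermatogonia, 31 of 7470 in preleptotene and 47 of 6717 in pachytene/diplotene, but 4172 of 7320 in type A1. Round spermatids had no listed Pole4 peak. The replicates of undifferentiated and type A1 cells were far apart, at 8.04 and 8.28 against 2.28 and 2.25 (difference 4.21, SE 0.25, limma adjusted p = 0.000312). Type A1 was lower than preleptotene too, at 1.92 and 1.91 against 7.46 and 6.08 (difference -3.79, SE 0.43, limma adjusted p = 0.00171). Against round spermatids the peak stood at 6.74 and 6.58 against 0.81 and 2.57 (difference 3.36, SE 0.49, limma adjusted p = 0.00548), with the round spermatid replicates far apart. A second Pole4 peak in the coding sequence of undifferentiated cells gave 4.60 and 5.58 against 0.76 and 0.85 in type A1 (difference 2.60, SE 0.28, limma adjusted p = 0.00104). These 4 calls held under every alternative that could be run for them. Between preleptotene and undifferentiated cells the peak was not called, at 7.83 and 6.44 against 7.74 and 8.12 (difference -0.80, SE 0.44, limma adjusted p = 0.323).

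The other epsilon subunits followed at lower levels. Pole, the catalytic subunit that copies the leading strand, had its strongest peak at the start codon in 4 stages, at 5.78 and 6.09 in undifferentiated, 2.76 and 2.70 in type A1, 4.81 and 4.92 in preleptotene and 3.58 and 3.27 in pachytene/diplotene. It was higher in undifferentiated than in type A1 cells, at 5.78 and 6.09 against 2.76 and 2.69 (difference 1.52, SE 0.25, limma adjusted p = 0.00502), a call kept under every alternative. It was lower in type A1 than in preleptotene cells, at 2.76 and 2.70 against 5.09 and 5.19 (difference -1.35, SE 0.24, limma adjusted p = 0.00677). This call was lost under 4 of 13 alternatives, quantile normalization among them (adjusted p = 0.0864). Pole had 5, 6, 5 and 2 peaks in the first 4 stages and was among the 3 members with most peaks in the first 3. Pole2, the accessory subunit, was marked up to preleptotene, with 2.58, 1.85 and 3.08 as means of its strongest peak. Pole3, the histone-fold partner of POLE4, was the weakest marked member of undifferentiated cells (1.91 and 2.07) and of pachytene/diplotene (2.15 and 1.83), and was not marked elsewhere. Both histone-fold partners thus sat at opposite ends of the scale in the same cells.

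**Figure D4:**
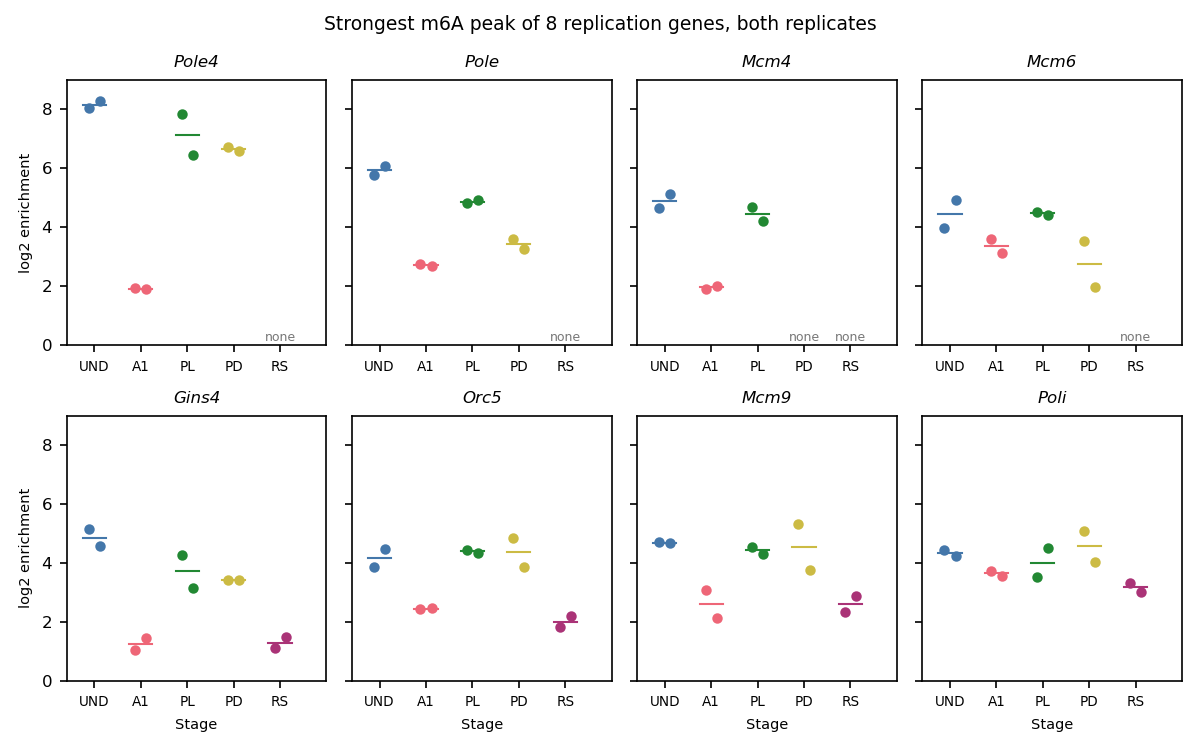
Log2 enrichment (vertical axis) of the strongest peak of 8 genes in both replicates (points, with replicate 1 on the left) of each stage, with the mean as a line; UND, A1, PL, PD and RS are undifferentiated and type A1 spermatogonia, preleptotene and pachytene/diplotene spermatocytes and round spermatids, and "none" means no listed peak. Pole4 runs from 8.16 in undifferentiated spermatogonia to 1.92 in type A1, while Poli stays between 3.16 and 4.56 in all 5 stages.

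The helicase ring genes were all marked up to preleptotene, with 6 of 6 in the first 3 stages, 3 in pachytene/diplotene (Mcm3, Mcm6 and Mcm7) and Mcm7 alone in round spermatids. Mcm4 (gene at chr16:15623897-15637400 of GRCm38.p6) had 3 peaks in each of the first 3 stages, a start codon peak and a pair in the coding sequence, which in undifferentiated cells began at positions 2344 and 2592 of NM_008565, and none later. Its start codon peak read 4.65 and 5.13 in undifferentiated, 1.91 and 2.01 in type A1 and 4.68 and 4.20 in preleptotene. It was higher in undifferentiated than in type A1 cells, at 4.65 and 5.13 against 2.0 and 2.12 (difference 1.14, SE 0.25, limma adjusted p = 0.0132). It was lower in type A1 than in preleptotene cells, at 1.91 and 2.01 against 4.61 and 4.13 (difference -1.35, SE 0.28, limma adjusted p = 0.0111). Both calls were lost without either type A1 replicate (adjusted p = 0.0641 to 0.126), with the differences between 1.11 and 1.42 in size. Between preleptotene and undifferentiated cells it was not called, at 4.68 and 4.20 against 4.58 and 5.06 (difference -0.37, SE 0.34, limma adjusted p = 0.583). The 2 coding peaks of Mcm4 were not called in any comparison, with differences between -0.65 and 0.52. In undifferentiated cells the upstream one read 3.01 and 3.10 and the downstream one 3.53 and 3.60, and in type A1 they read 0.97 and 1.05, and 1.58 and 0.96.

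Mcm5 differed in direction between its ends. It read 2.96 and 3.97 in undifferentiated, 1.51 and 1.28 in type A1 and 3.49 and 3.55 in preleptotene at its strongest peak, which was at the stop codon in type A1 and at the start codon in the other 2. The start codon peak was lower in type A1 than in preleptotene, at 1.05 and 1.35 against 3.35 and 3.46 (difference -1.14, SE 0.26, limma adjusted p = 0.0156), and the stop codon peak higher relative to the median, at 1.51 and 1.28 against 1.26 and 1.78 (difference 0.93, SE 0.27, limma adjusted p = 0.0373). Its 3′ peak was also lower in undifferentiated than in type A1 cells relative to the median, at 1.55 and 2.66 against 1.73 and 1.57 (difference -1.23, SE 0.30, limma adjusted p = 0.0188). The 2 replicates of undifferentiated cells lay on either side of the type A1 values. Mcm2 read 3.90 and 4.64 in undifferentiated, 1.91 and 2.18 in type A1 and 3.99 and 4.08 in preleptotene and had 2 coding peaks lower in type A1 than in preleptotene, at 1.91 and 2.18 against 3.99 and 4.12 and at 1.68 and 1.95 against 3.63 and 4.13 (differences -0.95 and -1.0, limma adjusted p = 0.0286 and 0.0318). Mcm3 was marked in 4 stages with means between 2.32 and 4.00, and no peak of it was called. Mcm6 carried a stop codon peak in 4 stages, at 3.98 and 4.92 in undifferentiated, 3.59 and 3.12 in type A1, 4.52 and 4.42 in preleptotene and 3.53 and 1.96 in pachytene/diplotene, and ranked 410 of 7320 in type A1 and 4757 of 6717 in pachytene/diplotene. Mcm7, marked in all 5 stages within its coding sequence, read 2.68 and 2.96 in undifferentiated, 0.97 and 1.31 in type A1, 2.62 and 2.65 in preleptotene, 3.25 and 2.29 in pachytene/diplotene and 1.17 and 0.94 in round spermatids and was the weakest marked member of round spermatids.

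Mcm8 and Mcm9 code for a second helicase pair that acts in recombination repair, and mice without them have germ cell defects. Mcm8 had a 5′ UTR peak up to preleptotene, at 4.93 and 3.82 in undifferentiated, 1.97 and 2.32 in type A1 and 4.41 and 4.90 in preleptotene, that was lower in type A1 than in preleptotene, at 1.97 and 2.32 against 4.64 and 5.09 (difference -1.65, SE 0.28, limma adjusted p = 0.00556). Mcm9 was marked in all 5 stages and kept a high level, at 4.72 and 4.66 in undifferentiated, 3.09 and 2.14 in type A1, 4.55 and 4.31 in preleptotene, 5.30 and 3.76 in pachytene/diplotene and 2.33 and 2.88 in round spermatids. It ranked 1484 of 9091, 1672 of 7320, 1396 of 7470, 935 of 6717 and 1005 of 5616 along the stages. A weaker Mcm9 coding peak was lower in undifferentiated than in type A1 cells relative to the median, at 2.93 and 3.21 against 3.06 and 2.17 (difference -1.24, SE 0.34, limma adjusted p = 0.0297), with type A1 replicates that spread by more than those of the other stage.

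The origin recognition complex, which marks where replication can start, had 4, 4, 5, 2 and 1 of its 5 listed genes marked along the stages. Orc1 (NM_011015), the largest subunit, was marked up to preleptotene at the start codon site printed above, at 4.15 and 4.24 in undifferentiated, 2.33 and 1.70 in type A1 and 4.18 and 3.73 in preleptotene, and this peak was not called. In type A1 it had 2 more peaks, which were higher than in preleptotene, in the coding sequence relative to the median, at 1.19 and 0.95 against 1.06 and 1.32 (difference 0.94, SE 0.25, limma adjusted p = 0.028), and at the stop codon, at 1.33 and 1.19 against 1.37 and 0.45 (difference 1.41, SE 0.34, limma adjusted p = 0.0196). At both, the deposited replicates overlap, and neither was called under quantile normalization (adjusted p = 0.796 and 0.130). Orc2 read 3.45 and 4.16 in undifferentiated, 2.72 and 2.90 in type A1 and 3.57 and 3.33 in preleptotene in its 3′ UTR, and 2.90 and 2.95 in pachytene/diplotene in its 5′ UTR. Its 3′ UTR peak was lower in undifferentiated than in type A1 cells relative to the median, at 3.45 and 4.16 against 2.88 and 3.11 (difference -0.88, SE 0.26, limma adjusted p = 0.0374), and a coding peak of it was higher in pachytene/diplotene than in round spermatids, at 2.88 and 2.36 against -0.07 and -0.16 (difference 1.13, SE 0.28, limma adjusted p = 0.0347). Orc6 had no peak in undifferentiated cells and a strong 5′ UTR peak in preleptotene (5.42 and 4.64), where it ranked 696 of 7470. In type A1 that peak was lower, at 2.25 and 2.32 against 5.26 and 4.64 (difference -1.60, SE 0.29, limma adjusted p = 0.00741). Orc5 was the only subunit marked in all 5 stages, always in its 3′ UTR, at 3.85 and 4.46 in undifferentiated, 2.43 and 2.47 in type A1, 4.43 and 4.34 in preleptotene, 4.83 and 3.87 in pachytene/diplotene and 1.81 and 2.18 in round spermatids. It was lower in round spermatids than in pachytene/diplotene, at 1.81 and 2.18 against 4.87 and 3.87 (difference -1.20, SE 0.30, limma adjusted p = 0.0174). Of the other subunit genes, Orc3 appeared in undifferentiated (1.73 and 2.48) and preleptotene cells (2.08 and 2.19), where it was the weakest marked member of the latter.

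The loaders and their inhibitor had no peak in round spermatids. Cdc6, the ATPase that recruits the ring, was marked in 4 stages, at 3.08 and 2.95 in undifferentiated, 1.66 and 1.95 in type A1, 2.88 and 2.57 in preleptotene and 2.89 and 2.36 in pachytene/diplotene. The type A1 values are of a 3′ UTR peak and the others of coding peaks. Its 3′ UTR peak was higher in type A1 than in preleptotene, at 1.66 and 1.95 against 1.07 and 1.51 (difference 1.58, SE 0.27, limma adjusted p = 0.0062). Cdt1, the licensing factor, was marked up to preleptotene with means of 2.59, 1.66 and 2.82. Gmnn, which codes for its inhibitor geminin, had a start codon peak in undifferentiated (1.63 and 2.38) and pachytene/diplotene cells (2.29 and 2.41). In the latter it was higher than in round spermatids, at 2.29 and 2.41 against -0.26 and -0.70 (difference 1.22, SE 0.32, limma adjusted p = 0.0478).

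Of the genes that activate the ring, Gins4, Gins1 and Cdc7 carried called peaks at their 5′ ends. Gins4, a GINS subunit marked in all 5 stages, read 5.16 and 4.56 in undifferentiated, 1.04 and 1.45 in type A1, 4.26 and 3.15 in preleptotene, 3.42 and 3.43 in pachytene/diplotene and 1.11 and 1.47 in round spermatids. Its 5′ UTR peak was higher in undifferentiated than in type A1 cells, at 5.16 and 4.56 against 1.10 and 1.48 (difference 1.88, SE 0.36, limma adjusted p = 0.00861), a call kept under every alternative, and lower in type A1 than in preleptotene, at 1.04 and 1.45 against 4.06 and 3.08 (difference -1.26, SE 0.37, limma adjusted p = 0.0383). Gins1 read 3.19 and 4.23 in undifferentiated, 1.47 and 2.10 in type A1, 4.62 and 4.22 in preleptotene and 3.45 and 2.82 in pachytene/diplotene. It was lower at its start codon in type A1 than in preleptotene, at 1.47 and 2.10 against 4.62 and 4.22 (difference -1.57, SE 0.32, limma adjusted p = 0.0104). Gins2 was marked in both spermatogonial stages only (means of 2.22 and 1.26), and Gins3 in undifferentiated and preleptotene cells (2.76 and 2.40). Cdc7, the kinase that fires origins, was strongest in its coding sequence, at 4.24 and 5.04 in undifferentiated, 3.15 and 2.77 in type A1, 4.56 and 4.89 in preleptotene and 4.59 and 4.03 in pachytene/diplotene, and ranked 925 of 7320 in type A1. In pachytene/diplotene a coding peak was higher than in round spermatids, at 4.59 and 4.03 against 1.07 and 1.66 (difference 1.33, SE 0.30, limma adjusted p = 0.027). Its start codon peak was higher in undifferentiated than in type A1 cells, at 3.07 and 2.60 against -0.01 and 0.01 (difference 1.14, SE 0.33, limma adjusted p = 0.037). Cdc45 read 2.17 and 2.62 in undifferentiated, 1.68 and 1.49 in type A1, 2.26 and 2.42 in preleptotene and 1.51 and 1.06 in round spermatids and was the 1 member with a peak in round spermatids and none in pachytene/diplotene. Relative to the median its coding peak was higher in round spermatids, at 1.51 and 1.06 against 1.72 and 1.51 (difference 0.85, SE 0.27, limma adjusted p = 0.0474), although the deposited values are not, and lower in undifferentiated than in type A1 cells, at 2.17 and 2.62 against 1.71 and 1.51 (difference -0.90, SE 0.25, limma adjusted p = 0.0332). Mcm10, the initiation factor without a deposited symbol, had 2, 2 and 3 peaks in the first 3 stages, with its strongest at 3.31 and 2.98, 1.90 and 1.86, and 3.21 and 3.07.

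Polymerase alpha-primase starts each new strand. Pola1, its X-linked catalytic subunit, was marked up to preleptotene (means of 3.95, 2.88 and 3.59) and not in pachytene/diplotene, a stage in which the X chromosome is known to be silenced, and the part of this was not tested. Pola2, the regulatory subunit, was marked in all 5 stages and was the weakest marked member of type A1. Its strongest peak changed place, at 2.33 and 3.45 in undifferentiated (stop codon), 0.95 and 0.99 in type A1 (5′ UTR), 2.54 and 2.05 in preleptotene (stop codon), 3.77 and 2.27 in pachytene/diplotene (start codon) and 1.86 and 1.59 in round spermatids (5′ UTR). Its 5′ UTR peak was lower in pachytene/diplotene than in round spermatids relative to the median, at 2.50 and 1.70 against 1.51 and 1.81 (difference -1.17, SE 0.29, limma adjusted p = 0.0365). Prim1, the primase, appeared in preleptotene only (2.24 and 2.41). Prim2, its partner subunit, was marked near its start codon in all 5 stages, at 4.03 and 3.90 in undifferentiated, 2.33 and 2.56 in type A1, 4.38 and 3.60 in preleptotene, 3.49 and 3.27 in pachytene/diplotene and 1.64 and 1.18 in round spermatids, and was not called.

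Polymerase delta, which copies the lagging strand, showed 1 call. Pold3, an accessory subunit marked in all 5 stages, read 3.29 and 4.80 in undifferentiated, 2.78 and 2.15 in type A1, 3.48 and 4.02 in preleptotene, 4.53 and 4.18 in pachytene/diplotene and 2.50 and 2.36 in round spermatids, and a coding peak of it was lower in type A1 than in preleptotene, at 1.81 and 1.61 against 3.46 and 4.12 (difference -1.02, SE 0.29, limma adjusted p = 0.0338). Pold1, the catalytic subunit, was marked up to preleptotene (means of 3.39, 2.05 and 3.31), and Pold2 in every stage but round spermatids (2.81, 1.03, 2.24 and 2.45). No peak of either was called.

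The clamp loader opens the sliding clamp PCNA. Rfc1, its large subunit, and Rfc2 were marked in all 5 stages, Rfc1 at 3.63 and 3.90 in undifferentiated, 1.85 and 1.82 in type A1, 3.30 and 2.99 in preleptotene, 3.54 and 3.41 in pachytene/diplotene and 1.53 and 1.52 in round spermatids. A coding peak of Rfc1 was lower in pachytene/diplotene than in round spermatids relative to the median, at 2.47 and 2.17 against 1.77 and 1.75 (difference -1.05, SE 0.28, limma adjusted p = 0.0457). Rfc2 kept a start codon peak, at 3.29 and 4.0 in undifferentiated, 1.44 and 1.42 in type A1, 3.21 and 2.35 in preleptotene, 4.53 and 4.42 in pachytene/diplotene and 1.84 and 2.39 in round spermatids. It was lower in round spermatids than in pachytene/diplotene, at 1.84 and 2.39 against 4.52 and 4.40 (difference -1.17, SE 0.30, limma adjusted p = 0.0213). Rfc3 was marked in type A1 only, at its stop codon, where it was higher than in preleptotene relative to the median, at 1.36 and 1.39 against 1.39 and 1.82 (difference 0.83, SE 0.26, limma adjusted p = 0.0466), although the deposited values are slightly lower. Rfc4 was marked in every stage but type A1 (means between 1.69 and 2.70). Rfc5, read at 2.91 and 2.75 in undifferentiated, 1.36 and 1.11 in type A1 and 2.47 and 2.14 in preleptotene, had a stop codon peak lower in undifferentiated than in type A1 cells relative to the median, at 2.04 and 2.25 against 1.44 and 1.18 (difference -0.85, SE 0.27, limma adjusted p = 0.0458).

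Replication protein A coats single-stranded DNA. Rpa1, the large subunit, was marked in all 5 stages. It read 3.05 and 3.63 in undifferentiated cells in its coding sequence. At its stop codon it read 2.50 and 2.51 in type A1, 4.04 and 3.92 in preleptotene, 3.45 and 2.92 in pachytene/diplotene and 2.02 and 1.79 in round spermatids. With 5 peaks it was among the 3 members with most peaks in undifferentiated cells. Of these, 2 coding peaks were higher than in type A1, at 2.28 and 2.69 against -0.13 and -0.05 and at 2.19 and 2.37 against -0.49 and -0.38 (differences 0.89 and 1.02, limma adjusted p = 0.0323 and 0.0223). Each call was lost under 3 of 12 alternatives, quantile normalization among them (adjusted p = 0.0760 and 0.0819). Rpa2 was marked in both spermatogonial stages and in pachytene/diplotene (means of 2.19, 1.26 and 2.37). Rpa3, the small subunit, read 3.57 and 4.13 in undifferentiated, 2.29 and 2.42 in type A1, 3.69 and 3.66 in preleptotene and 2.57 and 2.11 in pachytene/diplotene. It was higher in pachytene/diplotene than in round spermatids, at 2.57 and 2.11 against -1.38 and -0.89 (difference 1.87, SE 0.29, limma adjusted p = 0.00741), a call kept under the 11 alternatives run for it. Round spermatids list no Rpa3 peak, which favours pachytene/diplotene. The alternative limited to peaks that both stages list could not include it.

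Of the 6 translesion and repair polymerase genes 5, 4, 6, 5 and 3 were marked along the stages. Poli, a translesion polymerase gene, was marked in all 5 stages, at 4.44 and 4.24 in undifferentiated, 3.73 and 3.56 in type A1, 3.50 and 4.50 in preleptotene, 5.10 and 4.03 in pachytene/diplotene and 3.31 and 3.02 in round spermatids. It was the strongest marked member in type A1, ranked 203 of 7320, and in round spermatids, ranked 379 of 5616. All 4 Poli peaks of undifferentiated cells were lower than in type A1 relative to the median, with differences from -1.79 to -1.06 and limma adjusted p from 0.00281 to 0.0334. Their values were 2.41 and 2.43 against 2.17 and 2.01, 2.39 and 3.0 against 2.70 and 2.87, 3.38 and 2.74 against 2.79 and 2.68 and 4.44 and 4.24 against 3.82 and 3.61, so the deposited replicates overlap at the second and the third of these peaks, and 3 of the 4 differences turn without centring. Relative to the median, a Poli peak was higher in type A1 than in preleptotene, at 2.89 and 2.91 against 2.68 and 3.38 (difference 0.93, SE 0.29, limma adjusted p = 0.0465), and one was lower in pachytene/diplotene than in round spermatids, at 2.85 and 2.68 against 2.32 and 2.34 (difference -1.18, SE 0.28, limma adjusted p = 0.0326). These peaks of 1 gene lie close together and are not independent. With 5 and 4 peaks Poli was also among the 3 members with most peaks in both last stages.

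Polk, another translesion polymerase gene, was marked in all 5 stages, at 2.94 and 2.90 in undifferentiated, 2.39 and 2.13 in type A1, 3.11 and 3.86 in preleptotene, 2.58 and 2.70 in pachytene/diplotene and 2.49 and 2.10 in round spermatids. Relative to the median its coding peak was lower in undifferentiated than in type A1 cells, at 2.94 and 2.90 against 2.38 and 2.07 (difference -0.99, SE 0.29, limma adjusted p = 0.0366), and in pachytene/diplotene than in round spermatids, at 2.58 and 2.70 against 2.40 and 2.05 (difference -1.19, SE 0.32, limma adjusted p = 0.048). In the round spermatid table a neighbouring peak was higher than in pachytene/diplotene relative to the median, at 1.40 and 1.29 against 1.39 and 1.40 (difference 1.12, SE 0.27, limma adjusted p = 0.0168), although the deposited values hardly differ. Polh, whose product bypasses ultraviolet damage, read 3.17 and 2.98 in undifferentiated, 2.38 and 2.17 in type A1, 3.45 and 2.90 in preleptotene and 3.91 and 2.85 in pachytene/diplotene, and its coding peak was lower in undifferentiated than in type A1 cells relative to the median, at 3.17 and 2.98 against 2.36 and 2.28 (difference -0.93, SE 0.30, limma adjusted p = 0.0479). Poll, a gap-filling polymerase gene, was marked in every stage but type A1 (means between 1.62 and 3.10) and was not called.

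Polq, which codes for the polymerase of microhomology-mediated end joining, had 4, 6, 4 and 4 peaks in the first 4 stages, the strongest at 3.99 and 2.80 in undifferentiated, 1.89 and 1.73 in type A1, 2.81 and 3.63 in preleptotene and 3.59 and 2.86 in pachytene/diplotene. One coding peak was higher in pachytene/diplotene than in round spermatids, at 3.04 and 2.56 against -0.51 and -0.70 (difference 1.80, SE 0.28, limma adjusted p = 0.00697), a call kept under the 11 alternatives run for it. Round spermatids list no Polq peak, which favours pachytene/diplotene. The alternative limited to peaks that both stages list could not include this peak. An overlapping peak was lower in undifferentiated than in type A1 cells relative to the median, at 2.08 and 2.64 against 1.88 and 1.53 (difference -1.03, SE 0.27, limma adjusted p = 0.0243), and another was higher in type A1 than in preleptotene relative to the median, at 1.75 and 1.27 against 1.65 and 1.83 (difference 0.84, SE 0.27, limma adjusted p = 0.0486). Poln, a polymerase gene of interstrand crosslink repair, was listed in preleptotene only, with its strongest peak at 3.11 and 2.66. Of its 4 peaks 3 were higher than in undifferentiated cells, at 3.11 and 2.66 against 0.25 and 0.47, at 2.54 and 1.66 against -0.72 and -0.53 and at 2.58 and 2.57 against 0.15 and 0.32 (differences 2.52, 2.73 and 2.34, limma adjusted p = 0.00239, 0.00257 and 0.00267). The second of these was not called under quantile normalization (adjusted p = 0.120). Undifferentiated cells list no Poln peak, so these 3 peaks were tested only through preleptotene, which favours that stage. Both preleptotene replicates lay above both of undifferentiated cells at all 3 peaks, which is therefore no added support.

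The mitochondrial polymerase and Mcm3ap complete the list. Polg, the catalytic subunit of the mitochondrial DNA polymerase, was marked in 4 stages, at 4.04 and 4.79 in undifferentiated, 2.03 and 1.72 in type A1, 3.39 and 3.25 in preleptotene and 4.29 and 4.20 in pachytene/diplotene. It had 4 peaks in pachytene/diplotene, as did Mcm9, Orc2, Polq and Rfc1, behind Poli. In undifferentiated cells its start codon peak at 3.28 and 3.62 against 0.89 and 1.05 and a coding peak at 4.04 and 4.79 against 1.83 and 1.91 were higher than in type A1 (limma adjusted p = 0.0486 and 0.0402), calls that were lost under 8 of 13 and 4 of 12 alternatives. In type A1 the start codon peak was lower than in preleptotene, at 1.07 and 1.26 against 3.31 and 3.36 (difference -1.11, SE 0.25, limma adjusted p = 0.0151), and a coding peak was higher relative to the median, at 1.16 and 1.25 against 1.57 and 1.34 (difference 0.82, SE 0.25, limma adjusted p = 0.0458). Polg2, the accessory subunit, was marked in both spermatogonial stages (4.11 and 2.00). Mcm3ap was among the 3 members with most peaks in the first 3 stages, with 6, 6 and 7, the strongest at 3.89 and 4.48 in undifferentiated, 1.76 and 1.83 in type A1, 3.63 and 3.53 in preleptotene and 3.91 and 2.76 in pachytene/diplotene. Its 6 called peaks went both ways. One was higher in undifferentiated than in type A1 cells at 3.89 and 4.48 against 0.80 and 0.96 (difference 1.62, SE 0.25, limma adjusted p = 0.00393) and one lower relative to the median at 2.23 and 2.81 against 1.70 and 1.72 (difference -0.88, SE 0.25, limma adjusted p = 0.0331). In type A1 one was higher than in preleptotene at 1.10 and 1.02 against 0.78 and 1.05 (difference 1.20, SE 0.25, limma adjusted p = 0.0111), and 3 were lower, at 1.22 and 1.61 against 3.60 and 3.40, at 1.06 and 1.09 against 3.60 and 2.81 and at 1.65 and 1.49 against 3.29 and 3.59, with differences from -1.07 to -0.81 and limma adjusted p from 0.028 to 0.0459.

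Genes that work with these at the fork or supply it, 54 in all and not matched by the rule, were marked in the same order of stages, 50, 45, 49, 30 and 21 of 54, with Rnaseh2c never marked. All genes have that order too, with 75.9%, 61.1%, 62.4%, 56.1% and 46.9% marked. Against type A1, 18 of 144 of their peaks were higher in undifferentiated cells (12.5%, against 15.9% of all peaks) and 9 lower (6.25%, against 9.22%). Against preleptotene 2 of 108 were higher in type A1 (1.85%, against 14.4% of all peaks) and 18 lower (16.7%, against 13.6%). Slbp, which codes for the histone mRNA stem-loop binding protein, and Topbp1, a scaffold of origin firing and checkpoint signalling, led. Slbp read 7.11 and 7.21 and Topbp1 6.60 and 7.08 at their strongest in undifferentiated cells, where Rad18, a ubiquitin ligase of translesion synthesis, followed with 5.36 and 5.54. In type A1 the strongest were Dtl, a replication-coupled ubiquitin ligase adaptor (3.69 and 3.52), Rif1, a regulator of replication timing (3.61 and 3.48), and Rev1, a translesion scaffold (3.47 and 3.08). Slbp (6.59 and 6.08), Dtl (5.71 and 5.69) and Topbp1 (5.77 and 5.23) led in preleptotene, Topbp1 (5.94 and 5.34), Slbp (5.65 and 5.44) and Dtl (5.53 and 4.86) in pachytene/diplotene, and Rif1 (3.31 and 3.05), Dtl (3.12 and 3.0) and Polb, the base excision repair polymerase (3.09 and 2.87), in round spermatids.

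Alternatives were not run for these genes. Like Pole4, the coding peaks of Topbp1 and Slbp were lower in type A1 than in both neighbours. Topbp1 stood at 6.60 and 7.08 against 1.80 and 2.20 in undifferentiated and type A1 cells (difference 3.15, limma adjusted p = 0.000664) and at 1.78 and 2.20 against 5.73 and 5.21 in type A1 and preleptotene (difference -2.41, limma adjusted p = 0.00219). Slbp stood at 7.11 and 7.21 against 2.90 and 3.17 (difference 2.44, limma adjusted p = 0.00119) and 2.35 and 2.50 against 5.22 and 5.03 (difference -1.63, limma adjusted p = 0.00412). In the first of these comparisons Rrm2, the ribonucleotide reductase subunit, was lower at its stop codon, at 1.61 and 2.40 against 2.46 and 2.08 (difference -1.95, limma adjusted p = 0.00297), where the deposited replicates overlap. Atad5, which helps unload PCNA, was higher in its 5′ UTR, at 3.84 and 3.87 against -0.25 and 0.81 (difference 1.89, limma adjusted p = 0.00822). Tfam, the mitochondrial transcription factor, was lower in its 3′ UTR, at 2.24 and 3.23 against 3.14 and 2.49 (difference -1.77, limma adjusted p = 0.007), where the deposited replicates overlap as well. In the second, Rad18 was lower at 1.91 and 2.34 against 4.55 and 4.70 (difference -1.44, limma adjusted p = 0.00821), Tyms, thymidylate synthase, at 1.39 and 1.39 against 4.30 and 3.36 (difference -1.37, limma adjusted p = 0.0225) and Top2b, a type II topoisomerase gene, at 1.69 and 1.33 against 3.90 and 3.88 (difference -1.32, limma adjusted p = 0.00869). Between preleptotene and undifferentiated cells 9 of 137 pathway peaks were higher (6.57%, against 5.36% of all peaks) and 1 lower (0.73%, against 2.45%). Among those higher was Primpol, a repriming primase, at 4.28 and 4.59 against 1.80 and 1.83 (difference 2.62, limma adjusted p = 0.00217). Dna2, a nuclease of Okazaki fragment processing, E2f2, an E2F transcription factor, and Atad5 were higher by 1.81, 1.75 and 1.40 (limma adjusted p = 0.00857, 0.00865 and 0.0303). Against round spermatids 9 of 80 were higher in pachytene/diplotene (11.25%, against 7.06% of all peaks) and 2 lower (2.5%, against 1.71%). In the lead were Topbp1 at 5.94 and 5.34 against 0.47 and 1.74 (difference 2.92, limma adjusted p = 0.00428) and Slbp at 5.65 and 5.44 against 1.41 and 2.12 (difference 2.16, limma adjusted p = 0.00597). Mtbp, an origin-firing factor gene, and Top1, a type I topoisomerase gene, were higher by 1.99 and 1.92 (limma adjusted p = 0.0171 and 0.00709), and Rev3l, the catalytic subunit of polymerase zeta, was lower relative to the median, at 3.28 and 2.28 against 2.80 and 2.42 (difference -1.44, limma adjusted p = 0.0223), although the deposited values overlap. Of the 49 pathway peaks listed in round spermatids 6 were higher than in pachytene/diplotene (12.2%, against 16.1% of all peaks) and 7 lower (14.3%, against 10.9%). Slbp was the farthest, at 1.47 and 2.44 against 6.18 and 5.94 (difference -2.93, limma adjusted p = 0.000821). Tfam, Dscc1, a clamp loader subunit of sister chromatid cohesion, and Rev3l were higher by 2.54, 1.72 and 1.42 (limma adjusted p = 0.00611, 0.00349 and 0.00881), with overlapping deposited values for Rev3l, and Rad18 differed by -1.16 (limma adjusted p = 0.0136).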

How the data were processed

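m6A was measured by antibody enrichment and sequencing in 5 stages, with 2 immunoprecipitated and 2 input libraries each. The submitters' processing notes name TopHat2 2.0.14 and the mm10 genome; no source used here names the peak caller or its threshold. The authors deposited read counts per library and, per stage, 1 peak table with, per replicate, a log2 enrichment and a log2 ratio to another stage, per the file headers. That stage is not named and was identified by its values (matched replicates correlated at r of 0.940 to 0.972, other stages at 0.347 to 0.702), and its enrichment is the table's enrichment minus the ratio. Reads behind single peaks were not used. limma 3.58.1 in R 4.3.3 compared 2 replicates with 2, on columns centred on their medians, without values of exactly 0 and without a replicate block, with Benjamini-Hochberg adjustment over all peaks and a threshold of 0.05. A gene counts as marked with at least 1 peak, and peaks overlap from 1 shared transcript base. Blank preleptotene locations were described by an overlapping labelled peak of another stage. In simulations limma found 14% to 58% of log2 differences of 1 and 98% to 100% of those of 2, with 2 to 23 false calls. Each simulation changed 50 peaks per size, far fewer than were called in the data, so these rates need not hold for the comparisons here. Replicate values are given for Mcm4, Pole4, members called in any comparison, marked in 1 or all 5 stages, among the 3 with most peaks, or strongest or weakest of a stage, and pathway genes are named if among the 3 strongest of a stage or the 5 most different in a comparison. Members, lists and rules were chosen with earlier results of these data known. The values of 1 pathway gene are not reported here.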

Additional observations from a re-analysis of the deposited data

How the results depend on the processing

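Of the 65 calls on member peaks 11 held under every alternative run, on Pole, Mcm3ap, Gins4, Pole4, Poln, Rpa3 and Polq, and 24 turned direction, only when the columns were not centred, which moved the median of all peaks by 1.79, -1.07, 0.01, 1.62 and -1.23 in the order of the comparisons of the report. Without centring the calls numbered 97, 53, 61 and 15 where they moved. The uncentred differences of undifferentiated minus type A1 cells were 0.34, 0.33 and 0.63 for Poli, 0.45 for Mcm5 and Mcm9, 0.81 for Orc2 and Mcm3ap, 0.79 for Cdc45, 0.70 for Polk, 0.84 for Rfc5, 0.65 for Polq and 0.75 for Polh. Those of type A1 minus preleptotene were -0.13 for Poli and Mcm5, -0.12 for Orc1, -0.25 for Polg, -0.23 for Rfc3 and -0.22 for Polq. Pachytene/diplotene minus round spermatids gave 0.43 for Poli, 0.44 for Pola2, 0.56 for Rfc1 and 0.42 for Polk, and the reverse gave -0.33 for Cdc45 and -0.057 for Polk. Among peaks that overlap a listed peak of the other stage, 15, 11, 0 and 2 calls stood in the first 4 comparisons, in which fewer peaks are tested. Peaks of at least 2 left 6 calls between type A1 and preleptotene, and quantile normalization none in the round spermatid table. The cause of these changes was not tested. With 1 library left out the calls ranged from 6 to 34, 2 to 46, 3 to 5, 3 to 7 and 0 to 7. The replicate numbers do not pair the samples, since no label ties them, and same-numbered samples deviated with correlations of -0.13, -0.14, 0.12, 0.06 and 0.02. With the replicate number as a block the calls were 21, 23, 4, 12 and 4, and the crossed pairing, added after seeing the data, gave 28 and 35 in the first 2 comparisons. Members marked fell to 29 in undifferentiated cells when every table gave its 10950 strongest peaks, and to 21 in type A1 and 5 in round spermatids with peaks of at least 2. With 1 replicate at the common floor they ranged from 46 to 46, 30 to 31, 44 to 44, 30 to 31 and 10 to 12 along the stages. The median enrichment was 2.93, 1.74 and 3.09 in the first 3 stages as a mean over peaks, and with 1 replicate it ranged from 3.37 to 3.91, 1.98 to 2.04, 3.48 to 3.60, 2.88 to 3.53 and 1.65 to 1.81. Depth per peak is unknown here, and with 2 replicates differences near 1 were often missed in simulations, in which fewer peaks differed than were called in the data.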
